A study of Mus musculus with 4 samples.

Results

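The genes described here act in the insulin signal downstream of the receptor: Pik3r1, Pdpk1, Akt1, Akt2, Trib1, Slc2a4, Foxo1, Foxo3 and Ddit4. They were taken by name, with earlier results of these data known. All peaks of 2 deposited BCL6 peak lists were taken whose nearest annotated promoter belonged to one of them, at any distance. That gave 16 peaks of 5741, of which 5 of 1785 were in the inguinal and 11 of 3956 in the perigonadal list. Akt2 had no peak in either list, and the other 8 genes had at least 1.

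The lists come from chromatin immunoprecipitation followed by sequencing of BCL6, a zinc finger protein that represses transcription, in a study of the genes it regulates in fat cells. All mice were C57BL/6 animals of the genotype Adipoq-Cre;Sun1-sfGFP-myc. Adipoq-Cre is active in adipocytes and there switches on the tagged nuclear membrane protein, by which the nuclei were captured on beads. The groups were BCL6 chromatin and input DNA of inguinal (subcutaneous) fat and of perigonadal (visceral) fat, with 1 library in each, 4 in all. Age, sex, diet and the number of mice behind a library are not given in the labels, and both input libraries were not analysed here. Each depot therefore had a single measurement, so differences between the depots have no replicate check and no p-value is given.

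As background, insulin activates phosphoinositide 3-kinase, whose lipid product brings the kinases PDPK1 and AKT to the membrane, where PDPK1 phosphorylates AKT. In adipocytes active AKT, above all AKT2, sends the glucose transporter GLUT4 to the cell surface and restrains lipid breakdown. AKT also phosphorylates FOXO transcription factors, which then leave the nucleus, and it relieves the brake on the growth kinase mTORC1.

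A peak score is the authors' tag number scaled for library size. To within their rounding, all scores were whole multiples of a step, 0.752 for inguinal and 0.882 for perigonadal peaks, and 1 step was read as 1 sequenced tag. The scaling total is not stated in the labels or headers, which leaves the library depths unknown. The intervals below are exact Poisson 95% intervals of the tags. They take in counting error alone, since sequenced copies of a molecule cannot be told apart here. The inguinal peaks held 9 to 266 tags (median 12) and the perigonadal ones 6 to 295 (median 10). The inguinal header names a false discovery rate of 0.001 and the perigonadal header none, so the lists may have been called at different limits, and scores are compared within a list only.

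BCL6 peaks were named for 3 of the 9 genes in inguinal fat (Akt1, Trib1 and Ddit4) and for 8 of 9 in perigonadal fat. The same rule gave a peak to 6.15% of all 21896 protein-coding genes in inguinal and to 12.3% in perigonadal fat. Because the 9 genes were chosen with earlier results of these data known, the shares given here and below are no independent test. Within 50 kb of the promoter the counts were again 3 and 8, beside 4.25% and 8.89% of all genes. Within 10 kb they were 1 (Akt1) and 5 (Akt1, Pdpk1, Trib1, Slc2a4 and Foxo1), beside 1.81% and 3.98%. Counting only peaks of more than 12 tags, 2 of 9 genes were left in each list, Akt1 and Ddit4 in both, beside 2.63% and 3.29% of all genes. With the perigonadal list held to its 1785 tallest peaks, 5 of 9 genes had one (Akt1, Ddit4, Foxo1, Foxo3 and Pdpk1), beside 6.02% of all genes. Genes differ in how much room they offer for peaks. The stretch from the midpoint toward one protein-coding neighbour to the midpoint toward the other had a median of 82.1 kb for the 9 genes and of 46.8 kb for all protein-coding genes. It ran from 14.6 kb at Slc2a4 to 974 kb at Pik3r1, and at Slc2a4, Akt1 (25.3 kb) and Ddit4 (45.1 kb) it was below the median of all genes. Its part in the counts was not tested.

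**Figure D1:**
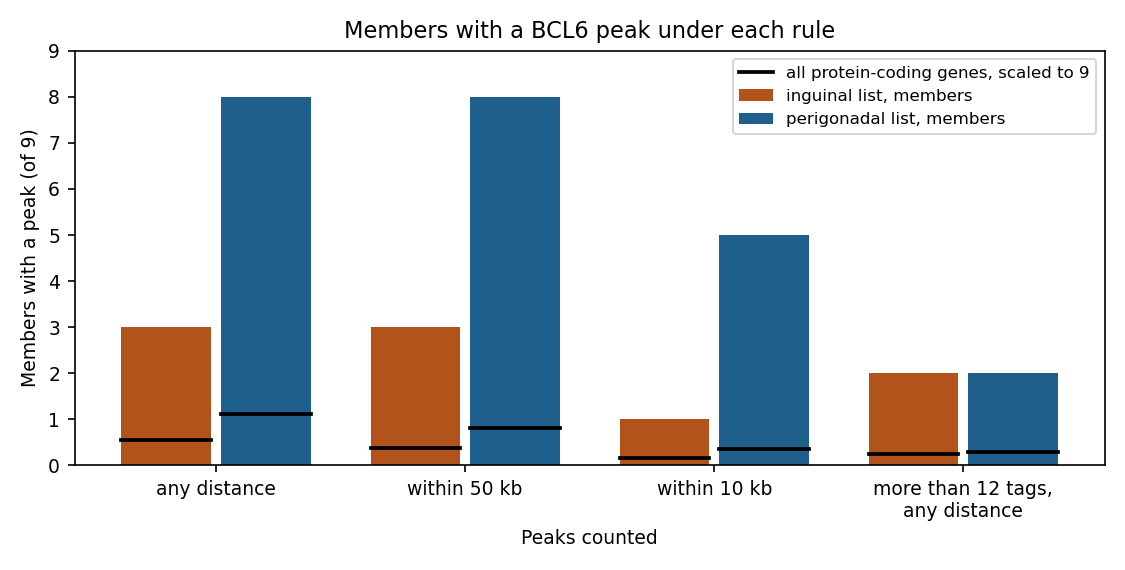
Bars give the number of the 9 genes with a BCL6 peak in the inguinal (brown) and perigonadal (blue) list for 4 ways of counting peaks, and black lines give the share of all protein-coding genes scaled to 9 genes. The counts are 3 and 8 at any distance and 2 and 2 with peaks of more than 12 tags alone.

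Peaks that overlapped between the depots by at least 1 bp were found at Akt1 and Ddit4, 2 of 9 genes, beside 1.86% of all protein-coding genes. They formed 3 pairs. Thus 3 of 5 inguinal and 3 of 11 perigonadal peaks of these genes had a partner, beside 28.5% and 12.8% of all peaks in the lists. Height went with this split. The 6 paired peaks rested on 17 to 60 tags. Of their 10 peaks without a partner, 9 rested on 8 to 11 tags and 1, the nearer inguinal peak of Ddit4, on 31.

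**Figure D2:**
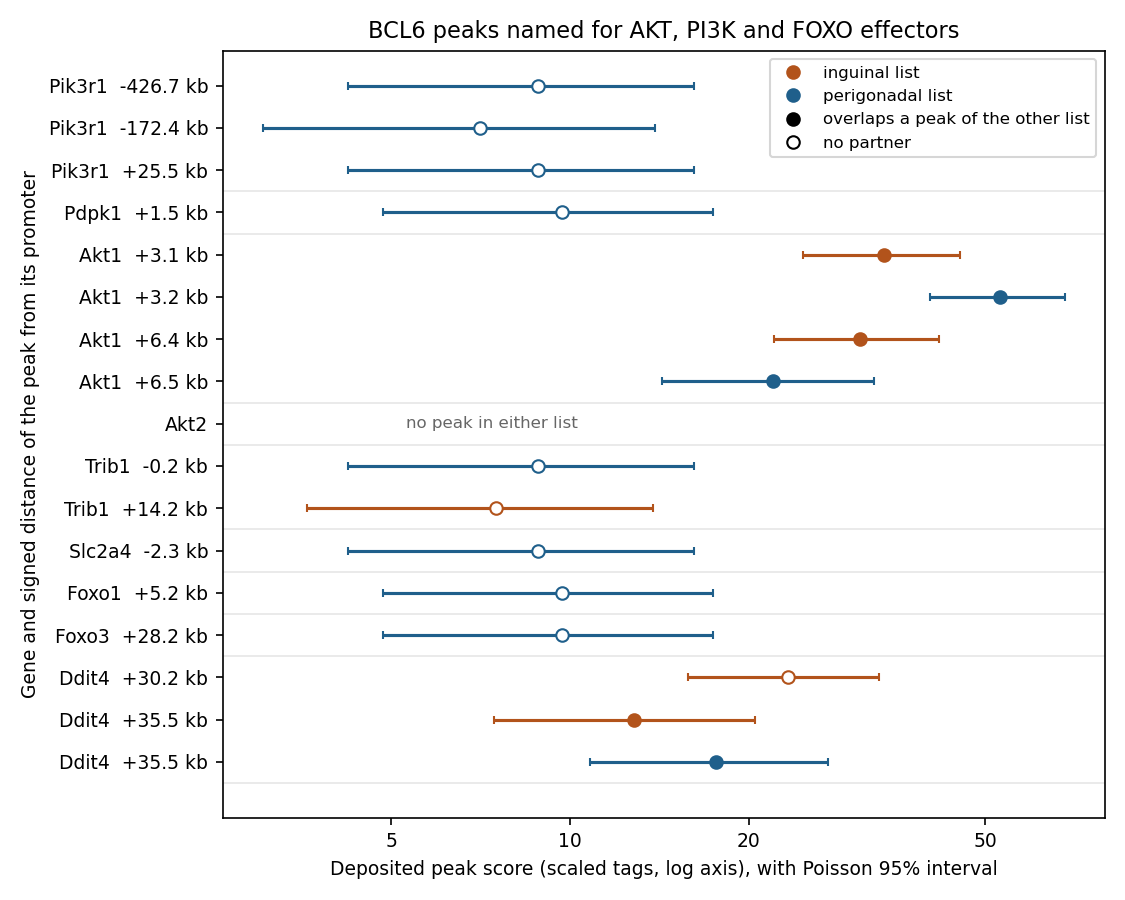
Deposited score of each of the 16 peaks (log axis) with its Poisson 95% interval, by gene and signed distance from the promoter; brown is the inguinal and blue the perigonadal list, and filled points overlap a peak of the other list. The Akt1 peaks lie at 22.0 to 52.9 and the Ddit4 peaks at 12.8 to 23.3, while the peaks of the other genes lie at 7.05 to 9.70.

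Akt1 encodes the AKT isoform found in nearly all tissues. It carried the tallest peaks of the 9 genes in each depot, 2 in inguinal and 2 in perigonadal fat, all in intron 2 of 13. The site nearer to the start lay at chr12:112671032-112671234 (mm10) in inguinal fat and at chr12:112671015-112671199 in perigonadal fat, 3.14 and 3.17 kb into the gene. Its score was 33.8 in the inguinal list (24.7 to 45.3, 45 tags) and 52.9 in the perigonadal list (40.4 to 68.1, 60 tags). It ranked 49 of 1785 and 23 of 3956, so that 97.1% and 99.4% of peaks in its list were lower.

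The farther Akt1 site lay at chr12:112667727-112667929 in inguinal and chr12:112667688-112667872 in perigonadal fat, 6.45 and 6.50 kb into the gene. It scored 30.8 in the inguinal list (22.1 to 41.8, 41 tags, rank 63) and 22.0 in the perigonadal list (14.3 to 32.5, 25 tags, rank 213). Both sites are therefore far above the median height of their lists. The paired peaks overlapped by 168 bp at the nearer and 146 bp at the farther site, and their centres lay 0.026 and 0.048 kb apart.

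Within the inguinal list the nearer and the farther site of Akt1 were alike in height within counting error, at 45 and 41 tags, a ratio of 1.10 with an exact binomial 95% interval of 0.703 to 1.72. Within the perigonadal list the nearer site was 2.40 times as high (1.48 to 3.99), at 60 and 25 tags. The nearer site thus held 52.3% of the tags of the pair in inguinal fat (41.3 to 63.2%) and 70.6% in perigonadal fat (59.7 to 80.0%). These intervals overlap. This split was computed after the peaks were seen, the peaks are 202 bp wide in one list and 184 bp in the other, and whether the depots differ was not tested.

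Such a double site was uncommon among the genes with shared peaks. This count was not planned beforehand, and close peaks present in a single list were not counted. Of 407 protein-coding genes with a peak shared between the depots, 19 had 2 or more shared sites, and 2 of these, Akt1 and the matrix gene Sparc, had shared sites within 5 kb of each other. The height of a pair was taken as the lower of its tag numbers in both lists, which are not scaled alike. Ranked by the 2nd highest pair of each gene, 25 tags at Akt1, 1 of the 19 genes stood higher. That was Retreg1, an endoplasmic reticulum turnover receptor gene. By the distance of both log2 scores, the shared sites most like the nearer Akt1 site were named for Ranbp2, Alppl2 and Snx14. Ranbp2, a nuclear pore gene, had 33.8 in inguinal and 55.5 in perigonadal fat (score distance 0.07). Alppl2, an alkaline phosphatase gene, had 35.4 and 53.8 (score distance 0.07). Snx14, a sorting nexin gene, had 35.4 and 51.1 (score distance 0.08). These sites lay 16.3, 92.9 and -0.133 kb from the promoters of the 3 genes, a minus meaning upstream. All 508 shared pairs were searched, and the likeness is one of height in 2 libraries.

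**Figure D3:**
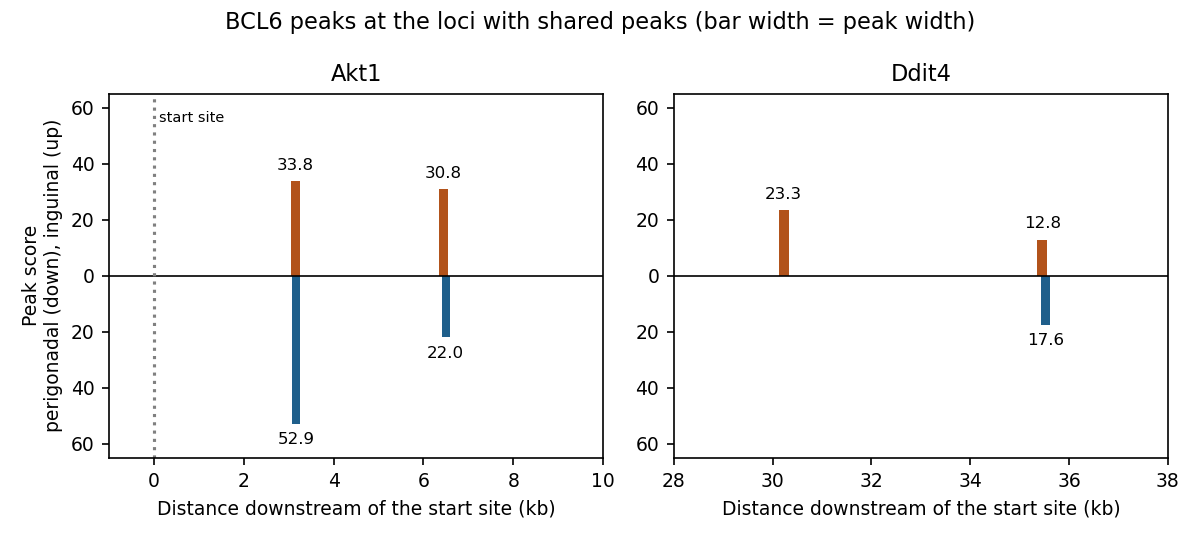
Score of each peak at Akt1 and Ddit4 against its distance downstream of the start site, with inguinal peaks drawn upward and perigonadal peaks downward and each bar as wide as its peak. Akt1 has both sites in both depots, while Ddit4 has its site at 30.2 kb in the inguinal list (23.3) and the one at 35.5 kb in both lists (12.8 and 17.6).

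Akt2 encodes the isoform that carries most of the insulin signal to glucose uptake in fat and muscle. It had 0 peaks in either list at any distance, and no peak of another name lay within 100 kb of the gene (chr7:27591552-27640826). A missing peak means that none was called there and sets no upper limit on binding, since the lists hold only peaks above their calling limits.

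Upstream of AKT, the 2 genes of this group had perigonadal peaks alone, of 8 to 11 tags beside a median of 10 in the list. Pik3r1 encodes p85-alpha, the regulatory subunit that joins phosphoinositide 3-kinase to insulin receptor substrates. In the perigonadal list it had a peak in intron 2 of 15, 25.5 kb into the gene at chr13:101742598-101742782, with a score of 8.82 (4.23 to 16.2, 10 tags). The other peaks named for it lay far upstream, at 172 kb with 7.05 (3.04 to 13.9, 8 tags), in an LTR retroelement, and at 427 kb with 8.82 (10 tags). The inguinal peak nearest to any of them was 646 kb away.

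Pdpk1 encodes PDK1, the kinase that phosphorylates AKT in its activation loop. Its perigonadal peak lay in intron 1 of 13, 1.51 kb from the promoter at chr17:24149324-24149508, with a score of 9.70 (4.84 to 17.4, 11 tags), and falls in an annotated SINE repeat. The nearest inguinal peak was 729 kb away.

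Trib1 encodes a pseudokinase that hands target proteins, among them C/EBP-alpha, to a ubiquitin ligase. It had 1 peak of 10 tags in each depot, at different places. The perigonadal one lay on the promoter, 0.209 kb upstream of the start at chr15:59648353-59648537, with a score of 8.82 (4.23 to 16.2, 10 tags), and was the only one of the 16 peaks annotated to a promoter. The inguinal one lay 14.2 kb downstream of the start, beyond the gene's end, at chr15:59662708-59662910, with a score of 7.52 (3.61 to 13.8, 10 tags). The inguinal peak was low in its list, where 3.19% of peaks scored lower. The perigonadal peak stood at the median score of its list, where 19.0% of peaks scored lower and 1398 had this same score.

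Slc2a4 encodes GLUT4, the transporter that insulin moves to the surface of fat and muscle cells. Its perigonadal peak lay 2.33 kb upstream of the promoter at chr11:69950431-69950615, in a SINE repeat, with a score of 8.82 (4.23 to 16.2, 10 tags). The nearest inguinal peak was 227 kb away.

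The FOXO genes each had a perigonadal peak in an intron and no inguinal one. Foxo1 encodes the FOXO factor best known from insulin action in liver and fat, and its peak lay in intron 1 of 2, 5.22 kb into the gene at chr3:52273468-52273652. Foxo3 encodes a related factor, and its peak lay in intron 2 of 3, 28.2 kb into the gene at chr10:42248442-42248626. Each scored 9.70 (4.84 to 17.4, 11 tags). The nearest inguinal peaks were 265 and 354 kb away.

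Most perigonadal peaks of the group sat where the list is densest, around its median height. Of the 11 perigonadal peaks of the group, 7 rested on 10 or 11 tags, as did 1944 of the 3956 peaks in the list, 49.1%. Of those 1944 peaks 50, or 2.57%, had an inguinal partner, and of the 7 peaks 0 had one. Peaks of 10 tags were tied 1398 times, so that a rank among them has no meaning.

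**Figure D4:**
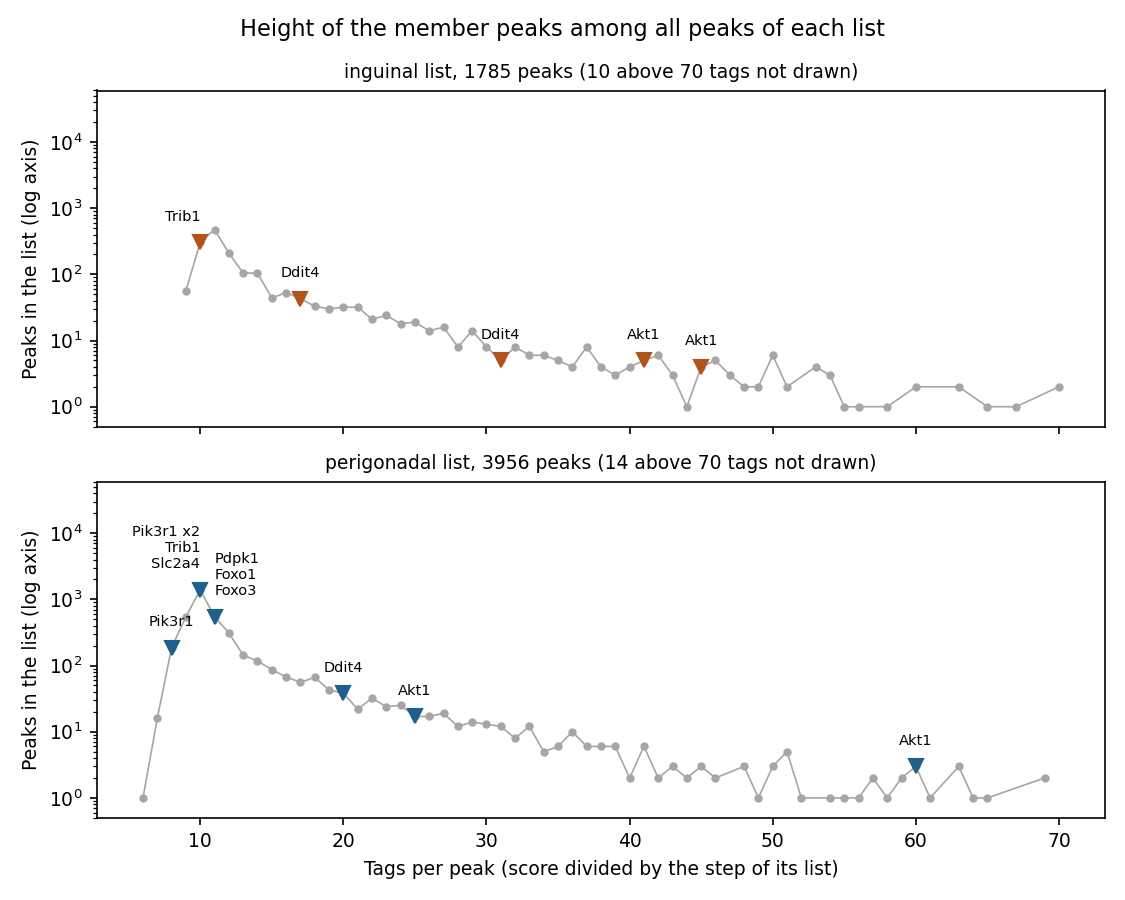
Number of peaks (log axis) at each tag number up to 70 in the inguinal (upper) and perigonadal (lower) list, with triangles at the peaks of the 9 genes. The perigonadal peaks of Pik3r1, Pdpk1, Trib1, Slc2a4, Foxo1 and Foxo3 sit at 8 to 11 tags, in the dense part of the list, and those of Akt1 at 25 and 60 tags.

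Ddit4 encodes REDD1, a stress-induced protein that holds back mTORC1 through the TSC complex. It had 2 inguinal peaks and 1 perigonadal peak, all annotated as intergenic, 30.2 to 35.5 kb downstream of its start. The nearer inguinal peak, at chr10:59921444-59921646, scored 23.3 (15.8 to 33.1, 31 tags, rank 116). The farther one, at chr10:59916208-59916410, scored 12.8 (7.45 to 20.5, 17 tags, rank 390).

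The perigonadal Ddit4 peak, at chr10:59916147-59916331, scored 17.6 (10.8 to 27.2, 20 tags, rank 333) and overlapped the farther inguinal peak by 124 bp. The nearer, higher inguinal site had no perigonadal peak. It is 1 of 7 peaks without a partner among the 120 inguinal peaks of more than 30 tags, a limit just below its own 31 tags. Among the 738 inguinal peaks of more than 12 tags, 302 had no partner. In inguinal fat the nearer site had 1.82 times the tags of the farther (0.979 to 3.51), an interval that takes in 1. The RefSeq gene table of GRCm38.p6, the assembly of mm10, places all 3 peaks inside the non-coding gene Gm40673 (chr10:59909447-59922598), while the authors' annotation names Ddit4 as the nearest promoter.

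Set against the lists as a whole, 8 of the 16 peaks lay in introns, 2 of 5 inguinal and 6 of 11 perigonadal, beside 47.0% and 47.1% of all peaks. All 8 were inside the gene they were named for. Repeats held 0 of 5 and 3 of 11, beside 21.1% and 24.0%. The deposited focus ratio, the share of tags placed around the centre as a single site would place them, ran from 0.688 to 0.906 in the inguinal and from 0.706 to 0.896 in the perigonadal peaks of the group. The medians of the whole lists were 0.812 and 0.833.

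For the rest of the pathway, 50 further genes were listed from knowledge of insulin signalling, with earlier results of these data known. Peaks were named for 4 of them in inguinal and 9 in perigonadal fat, beside 6.15% and 12.3% of all protein-coding genes. The other class I phosphoinositide 3-kinase subunits (0 of 7) had none in either list. Of 8 further AKT kinases, phosphatases and inhibitors 1 and 2 had one, of 16 AKT substrates and mTORC1 genes 2 and 2, and of 15 FOXO factors and FOXO target genes 1 and 5.

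Shared peaks lay at 2 of the 50 genes, beside 1.86% of all protein-coding genes. Bcl2l11, the gene of the pro-apoptotic protein BIM and a known FOXO target, had one 113 kb downstream of its promoter with 24.8 in inguinal (33 tags) and 23.8 in perigonadal fat (27 tags). Sesn1, the gene of a stress-induced mTORC1 inhibitor, had one 6.60 kb from its promoter with 16.5 (22 tags) and 21.2 (24 tags).

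Among the other inguinal peaks, Akt1s1, the gene of the mTORC1 component PRAS40, scored 8.27, and Mapkap1, the gene of an mTORC2 subunit, 7.52. In perigonadal fat the peaks 32.6 kb from Foxo6, a further FOXO gene, and 14.9 kb from Ccng2, a cyclin gene and FOXO target, scored 22.9 (26 tags) and 12.3 (14 tags). Tsc1, a subunit gene of the TSC complex, had 10.6 in intron 8. A promoter peak of 8.82 was found at Pdk4, which encodes a kinase that restrains pyruvate use, and 2 of that score at Phlpp2, the gene of a phosphatase of AKT. Sesn1 had 2 further peaks of 8.82 without a partner, 16.1 kb upstream and 63.9 kb downstream of its promoter. Cited2 had a peak of 8.82 and Rictor one of 7.93.

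A peak list holds no expression, so the cell type of the nuclei could not be checked by marker levels. Of 7 adipocyte markers 2 had a peak in each list (Cidec, Lep and Lpl between them), and of 18 markers of macrophages, endothelium, fibroblasts and mesothelium 0 had an inguinal and 1, Cdh5, a perigonadal peak. The shares over all protein-coding genes were the 6.15% and 12.3% given above, and counts this small do not show which cells the nuclei came from.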

How the data were processed

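BCL6 chromatin was sequenced from 1 inguinal and 1 perigonadal library. Per the labels' protocols the tissue was fixed with disuccinimidyl glutarate (30 minutes) and then formaldehyde (1%, 10 minutes), and BCL6 was precipitated with a custom guinea pig antibody. Per the submitters' processing notes Bowtie 1.2 and HOMER were used with mm10, and per the file headers the peaks were annotated with annotatePeaks.pl. The deposited score of a peak is the authors' scaled tag number, the deposited focus ratio is a fraction, and distances are the authors' base pairs to the nearest promoter. Peaks were matched to genes by Entrez number in a RefSeq table of GRCm38.p6 (1589 of 1593 inguinal and 3178 of 3180 perigonadal genes). For the 13 peaks that could be compared, distances recomputed from RefSeq start sites differed from the authors' by at most 47 bp. Where a gene had several start sites, the one closest to the authors' distance was used, which favours agreement. A promoter sequence was found for 7 of the 9 genes, all but Slc2a4 and Trib1. No peak sequences or motifs were used here. Tags are scores divided by the step of their list. Python 3.11.15, pandas 2.3.3 and SciPy 1.17.1 were used, and overlap and interval code was tested on simulated data. All 9 genes and each of their peaks are named, as are the 6 pathway genes per depot with the tallest peaks, those with shared peaks, and the 3 shared pairs most like the tallest; other pathway genes, markers and Retreg1 were named after their values were seen. The members and lists were chosen with earlier results of these data known. Alternatives covered overlap, tag minimum, distance and list length. One group of the pathway list is not reported here by itself.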

Additional observations from a re-analysis of the deposited data

How the results depend on the processing

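Akt1 and Ddit4 remained the genes with shared peaks, with 2 genes and 3 pairs, under each of the 5 alternatives for overlap, tags, distance and list length. Other counts fell. With peaks of more than 12 tags the perigonadal list kept 2 genes and 3 peaks of the group, and 4 of the 50 pathway genes; the inguinal list kept 2 pathway genes. Within 10 kb the inguinal list kept 1 gene and 2 peaks and the perigonadal list 5 genes and 6 peaks. Within 50 kb the inguinal list kept 2 pathway genes. With the perigonadal list held to its 1785 tallest peaks, 5 genes and 6 peaks were left, beside 6.02% of all protein-coding genes, with Foxo1, Foxo3 and Pdpk1 at the lowest score kept, 9.70, where 525 of 546 tied peaks were kept in file order. No paired analysis was possible because each depot had 1 library. A peak of 10 tags has a Poisson interval of 4.80 to 18.4 tags.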

Other observations

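Peaks within 100 kb of the 9 genes that carry another gene's name were found in the perigonadal list alone. One lay 24.3 kb from Akt1 in intron 2 of 12 of Adssl1, a muscle-type adenylosuccinate synthetase gene, and scored 8.82. The other lay 82.1 kb from Pdpk1 in an intron of another gene, with Mir5134 as its nearest promoter, and scored 10.6. The perigonadal peak of Foxo3 also lies within the non-coding gene Gm38485 (chr10:42247436-42274809), which overlaps Foxo3.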
